A study of Homo sapiens with 12 samples.

Results

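Genes of glycolysis and of the cellular response to low oxygen were followed in K562 cells, an established human leukaemia line, after CXXC5 had been overexpressed or knocked down. The genes came from a list of 42 symbols, each represented by its brightest probe set on average over the 12 arrays. Of these, 41 were measured among 11963 genes in all, and CA9 was not analysed here. They comprised 16 enzymes of glycolysis, 23 other targets of the hypoxia-inducible factors (HIFs), and HIF1A and EPAS1, which encode the oxygen-regulated subunits of the factors themselves. CXXC5 is a CpG-binding zinc finger protein known as an inhibitor of Wnt signalling. No group was labelled as kept in low oxygen, and the oxygen level is not given in the sources used here.

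Each of the 4 groups held 3 arrays. The overexpression cells had been nucleofected, transiently, with a pEGFP-C2 plasmid for EGFP-CXXC5. The knockdown cells carried a pLKO.1 lentiviral shRNA against CXXC5, from a pair of clones whose assignment to the samples is not given. The scrambled shRNA cells carried a lentiviral pLKO scrambled shRNA, and the empty vector cells had been nucleofected with empty pEGFP-C2. All 4 groups were in serum-free medium with Wnt3a at 100 ng/ml, and RNA was taken at 8 h. The arms thus differed in delivery, a stable lentiviral infection in one and a transient nucleofection in the other. CXXC5 had 0 probe sets among those used, so the labels were not checked against its level. Levels below are log2 expression values, changes are differences of group means on that scale, and rose and fell are used of genes with an adjusted p from limma under 0.05. Levels of different genes on an array also reflect their probes, so they are not ranked against each other.

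HIFs are made continuously, and in oxygen their alpha subunits are hydroxylated by prolyl hydroxylases, bound by the VHL ubiquitin ligase and degraded. When oxygen is short the alpha subunit is stable, pairs with ARNT and binds hypoxia response elements, whose core is ACGTG or GCGTG. Their targets raise glucose uptake and glycolysis, shift pyruvate away from mitochondria, remove mitochondria, build blood vessels and modify collagen. Most enzymes of glycolysis are also abundant in proliferating cells in normal oxygen.

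The arrays had medians between 6.65 and 6.71, and replicates correlated at 0.996 to 0.998. Scrambled shRNA replicate 3 stood apart in the 3' minus 5' difference of the GAPDH control probe sets, a sign of RNA quality, which was 0.87 there and 0.227 to 0.335 on the other 11 arrays. For the listed glycolysis and hypoxia genes as a whole, counts of calls, of groups without overlap and of extreme group means are also given without it. Most other counts that rest on it are given only with it. Among these are counts by class, of markers, of genes called in both CXXC5 comparisons and of other pathway genes. Of 10 listed erythroid genes that mark K562 cells, 7 were measured, with mean levels of 13.4 for TFRC, 12.4 for HBZ and 11.4 for HBE1. These markers moved too. With knockdown against scrambled shRNA 4 of the 7 fell (HBE1 -0.56, ALAS2 -0.49, HBZ -0.44 and TFRC -0.43) and GATA1 rose by 0.47. Between scrambled shRNA and empty vector 4 rose (EPOR, HBZ, HBE1 and TFRC) and GATA1 fell, with overexpression TFRC and HBE1 rose and HBZ fell, and with knockdown against empty vector HBZ rose and ALAS2 fell. The mean level of the 7 was 10.44 to 10.47 on the overexpression arrays, 10.53 to 10.59 on the knockdown arrays, 10.78 to 10.84 on the scrambled arrays and 10.44 to 10.51 on the empty vector arrays, and their part in the results below was not tested. Among 24 markers of T cells, B cells, monocytes, fibroblasts and endothelium, CD3D at 10.9, LYZ at 10.1 and COL1A1 at 7.90 had the highest means, and the others lay between 2.59 and 6.16. Their mean level per array was 5.41 to 5.55 in overexpression, 5.39 to 5.49 in knockdown, 5.47 to 5.55 in scrambled shRNA and 5.40 to 5.44 in empty vector cells. Of the 24, 2 rose with overexpression (CD3D and LYZ) and 1 fell with knockdown against scrambled shRNA (CD3D). In scrambled against empty vector cells 3 rose and 1 fell, and with knockdown against empty vector 1 rose and 1 fell. Over all genes 3.61% rose and 3.37% fell with overexpression, and 8.79% rose and 5.22% fell with knockdown against scrambled shRNA. Between the control groups 16.2% rose and 15.3% fell, and with knockdown against empty vector 3.02% rose and 1.52% fell. CD3D changed by 0.38, -0.35, 0.35 and 0.01 in these comparisons, and its part in the results below was not tested.

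Promoters are shown for 5 genes that changed with knockdown, chosen after their values were seen: ADM, BNIP3 and KDM3A, which fell, and HK2 and PLOD2, which rose. Each is the 250 bases before the first listed start of the gene in RefSeq on GRCh38.p14, written 5' to 3' in the gene's direction. Capitals mark ACGTG or GCGTG on the printed strand and CACGT or CACGC, the same motifs on the other strand. ACGTG and CACGT overlap in CACGTG, where each is counted.
ADM (chr11:10304823-10305072, plus strand): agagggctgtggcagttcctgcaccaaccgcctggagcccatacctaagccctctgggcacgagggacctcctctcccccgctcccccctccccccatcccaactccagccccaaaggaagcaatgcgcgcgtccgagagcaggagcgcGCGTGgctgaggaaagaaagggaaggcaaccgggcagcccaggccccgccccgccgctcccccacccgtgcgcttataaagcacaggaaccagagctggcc
BNIP3 (chr10:131981924-131982173, minus strand): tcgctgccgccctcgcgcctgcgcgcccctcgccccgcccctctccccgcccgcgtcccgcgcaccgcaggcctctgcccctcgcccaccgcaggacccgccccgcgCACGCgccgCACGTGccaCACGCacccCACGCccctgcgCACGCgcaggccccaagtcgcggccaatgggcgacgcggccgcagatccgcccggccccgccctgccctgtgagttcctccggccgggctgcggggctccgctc
KDM3A (chr2:86441121-86441370, plus strand): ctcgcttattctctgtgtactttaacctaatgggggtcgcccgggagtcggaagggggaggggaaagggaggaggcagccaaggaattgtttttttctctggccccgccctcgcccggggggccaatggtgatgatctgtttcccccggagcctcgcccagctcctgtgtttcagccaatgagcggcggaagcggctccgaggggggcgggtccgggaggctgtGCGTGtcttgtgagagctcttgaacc
HK2 (chr2:74833877-74834126, plus strand): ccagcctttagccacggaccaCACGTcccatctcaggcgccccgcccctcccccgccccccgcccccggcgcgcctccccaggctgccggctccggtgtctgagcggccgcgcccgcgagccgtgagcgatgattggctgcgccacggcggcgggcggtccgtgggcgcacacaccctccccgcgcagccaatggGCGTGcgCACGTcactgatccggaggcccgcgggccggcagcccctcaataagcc
PLOD2 (chr3:146161185-146161434, minus strand): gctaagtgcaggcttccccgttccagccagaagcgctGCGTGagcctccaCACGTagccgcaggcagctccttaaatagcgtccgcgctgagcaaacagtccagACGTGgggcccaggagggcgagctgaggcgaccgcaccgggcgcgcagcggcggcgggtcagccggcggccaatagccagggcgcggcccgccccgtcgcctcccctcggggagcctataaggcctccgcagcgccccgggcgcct
BNIP3 held 6 matches, HK2 and PLOD2 held 3 each, and ADM and KDM3A held 1 each. Of the 41 genes, 36 had a promoter in the table, and 25 of these, or 69.4%, held a match, against 53.2% of 9563 promoters of genes on the array. The share was 62.5% for the enzymes, 10 of 16, and 72.2% for the other targets, 13 of 18. The promoters of the 41 genes had a median of 24.5 CpG sites and all array genes 19, and the motifs themselves contain CpG. Of the genes that fell with knockdown, 4 of 7 with a promoter held a match, and of those that rose, 2 of 2. A match is a stretch of letters and was not measured as a binding site.

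Set against scrambled shRNA cells, knockdown cells had lower levels of several classical HIF targets, among them ADM, BNIP3, BNIP3L and SLC2A3, whereas HK2 and PLOD2 were higher. Of the 41 genes, 9 fell and 2 rose, where 5.22% of all genes fell and 8.79% rose. Among the 23 other targets 8 fell and 1 rose, with a median change of -0.11, and among the 16 enzymes 1 fell and 1 rose, with a median of -0.03. The median over all genes was -0.01. Every knockdown array was below every scrambled array for 17 of the 41 genes and above for 3, where 14.2% of all genes were below and 18.2% above. Without scrambled replicate 3 these counts were 23 below and 4 above, beside 19.2% and 24.1% of all genes. In bulk RNA, fewer cells of a type and less RNA per cell cannot be told apart.

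The largest fall was in ADM, the vasodilator peptide adrenomedullin. Its level was 5.69, 5.86 and 5.83 in the 3 knockdown arrays, against 6.42, 6.98 and 6.55 in the scrambled arrays. The change was -0.86 (SE 0.132), a 1.81-fold fall, with an adjusted p of 0.00127. VEGFA, the main growth factor for blood vessels, stood at 10.95, 10.70 and 10.75 in knockdown cells, against 11.01, 11.13 and 11.23 in scrambled cells. All its knockdown arrays were the lower ones, but its change of -0.33 did not pass (adjusted p 0.0712).

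BNIP3 and BNIP3L encode receptors in the outer mitochondrial membrane that mark mitochondria for autophagy, and BNIP3L does so in maturing red cells. BNIP3 was at 9.73, 9.68 and 9.73 in knockdown cells, against 10.03, 10.19 and 10.18 in scrambled cells, a change of -0.42 (SE 0.0582, adjusted p 0.000622). BNIP3L was at 10.58, 10.56 and 10.59 in knockdown cells, against 11.04, 11.10 and 11.16 in scrambled cells, a change of -0.53 (SE 0.0761, adjusted p 0.000874). In both genes the 2 groups were well separated and the 3 knockdown arrays lay within 0.1 of each other. Each has another probe set, which pointed the same way without passing, at -0.21 for BNIP3 (adjusted p 0.232) and -0.30 for BNIP3L (adjusted p 0.140). NDRG1, a stress-induced gene, changed by -0.41 and missed the threshold (adjusted p 0.0509).

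Glucose entry moved in the same direction. SLC2A3, a glucose transporter, read 11.07 on each of the 3 knockdown arrays, against 11.42, 11.59 and 11.64 on the scrambled arrays, a change of -0.48 (SE 0.076, adjusted p 0.00146). SLC2A1, the transporter found in most cells and in red cells, was at 8.21, 8.09 and 8.15 in knockdown cells, against 8.42, 8.29 and 8.45 in scrambled cells (-0.24, SE 0.0689, adjusted p 0.0408). PFKFB3, which makes an activator of phosphofructokinase, was at 8.00, 7.60 and 7.72 in knockdown cells, against 8.21, 8.00 and 8.16 in scrambled cells (-0.35, SE 0.0962, adjusted p 0.0302). The PFKFB3 groups all but touched at 8.00, whereas those of both transporters were further apart. The other 2 probe sets of SLC2A3 gave -0.40 (adjusted p 0.013) and -0.21 (adjusted p 0.414), and the other probe set of SLC2A1 gave -0.10. Without scrambled replicate 3 the calls of SLC2A1 (adjusted p 0.103) and PFKFB3 (adjusted p 0.083) ended, and the 41 genes gave 7 falls and 2 rises, where 4.47% of all genes fell and 7.85% rose. The SLC2A1 call was also lost without scrambled replicate 1 or any knockdown replicate, and the PFKFB3 call without scrambled replicate 1 or knockdown replicate 2 or 3. PFKFB4, a relative of PFKFB3, and PDK1, a pyruvate dehydrogenase kinase, were not called, at 0.03 and 0.01.

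Among regulators of transcription, KDM3A, a histone demethylase, and MXI1, a MAX partner that opposes MYC, fell. KDM3A was at 9.32, 9.30 and 9.38 in knockdown cells, against 9.70, 9.83 and 9.70 in scrambled cells (-0.41, SE 0.0723, adjusted p 0.00276). MXI1 was at 10.24, 10.08 and 10.11 in knockdown cells, against 10.43, 10.48 and 10.43 in scrambled cells (-0.31, SE 0.0701, adjusted p 0.0128). Both genes separated the groups fully, and the MXI1 call was lost when knockdown replicate 2 or 3 was left out. BHLHE40, a transcriptional repressor, and CITED2, which competes with HIF for its coactivators, had changes of 0.02 and 0.11 and were not called. HIF1A changed by -0.13 and EPAS1 by -0.12, and neither passed (adjusted p 0.319 and 0.329).

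The enzyme that fell was PFKP, the platelet form of phosphofructokinase, at 9.24, 9.26 and 9.30 in knockdown cells, against 9.63, 9.61 and 9.53 in scrambled cells (-0.32, SE 0.0748, adjusted p 0.0144). The enzyme that rose was HK2, the inducible hexokinase that traps glucose in the cell, at 10.65, 10.64 and 10.60 in knockdown cells, against 10.41, 10.40 and 10.42 in scrambled cells (0.22, SE 0.0523, adjusted p 0.014). These enzymes of early glycolysis thus moved in opposite directions, each with no overlap between the groups. Outside the enzymes, PLOD2, which hydroxylates lysines in collagen, also rose, with levels of 10.64, 10.49 and 10.53 in knockdown cells, against 10.21, 10.20 and 10.05 in scrambled cells (0.40, SE 0.0725, adjusted p 0.0033). The other probe sets of HK2 and PLOD2 gave 0.32 (adjusted p 0.0353) and 0.53 (adjusted p 0.0322). The collagen prolyl hydroxylase subunits P4HA1 and P4HA2 changed by -0.05 and -0.10 and were not called.

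**Figure D1:**
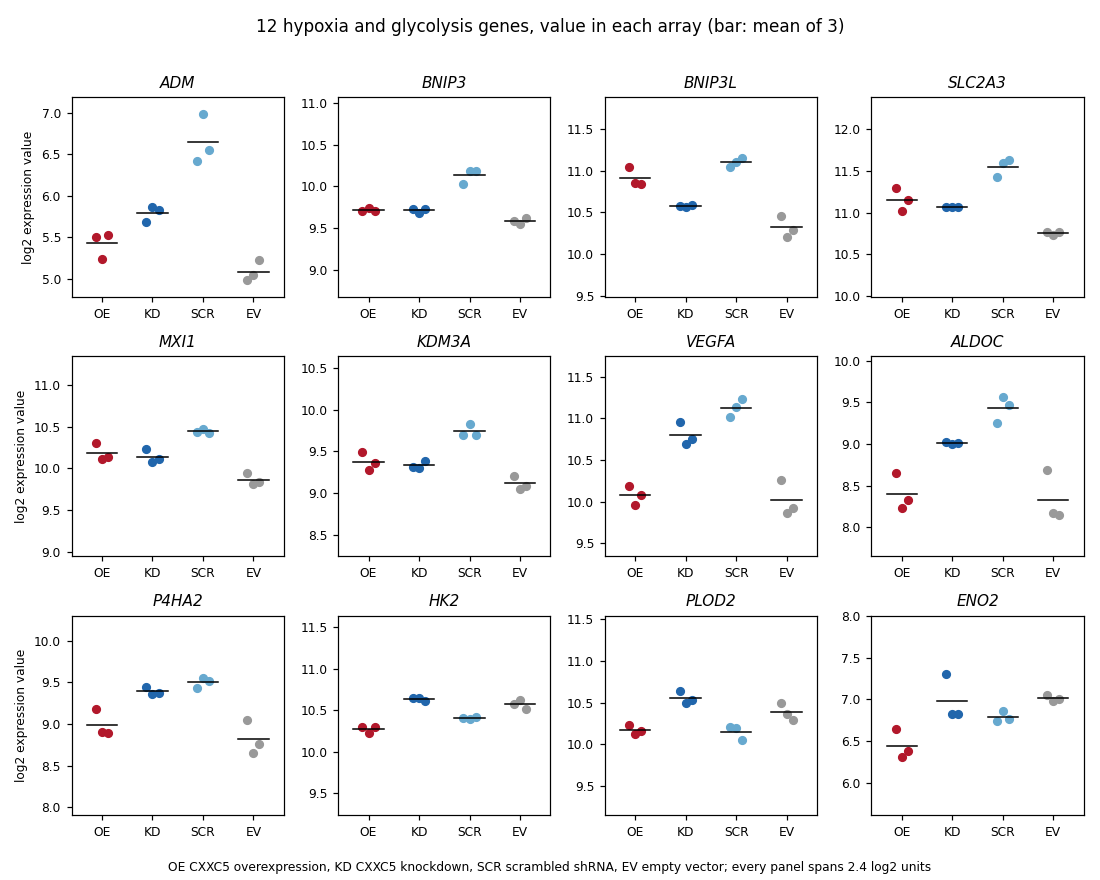
Each of the 12 panels plots 1 gene, with the log2 level of each array as a point, the groups along the horizontal axis in the order overexpression, knockdown, scrambled shRNA and empty vector, and a bar at each group's mean. ADM, BNIP3 and KDM3A are highest in the 3 scrambled shRNA arrays, whereas HK2 and PLOD2 have their highest mean in knockdown cells.

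With CXXC5 overexpression, set against empty vector, a mitophagy receptor, a glucose transporter and a MYC antagonist rose, and a hexokinase and an enolase fell. Of the 41 genes 3 rose and 2 fell, where 3.61% of all genes rose and 3.37% fell. The 3 that rose were all among the 23 other targets, whose median change was 0.06, and the 2 that fell were among the 16 enzymes, whose median was -0.02. Overexpression arrays lay wholly above the empty vector arrays for 9 of the 41 genes and wholly below for 7, where 12.6% of all genes were above and 15.3% below. Leaving out 1 array changed the calls: 5 of the 41 rose without empty vector replicate 1 (2.93% of all genes), 2 rose without empty vector replicate 2 (1.89%), empty vector replicate 3 (2.25%) or overexpression replicate 1 (2.46%), and 1 fell without empty vector replicate 1 or 2 or overexpression replicate 2 or 3 (1.29% to 1.99% of all genes).

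BNIP3L had the largest rise, with levels of 11.04, 10.86 and 10.85 in overexpression cells, against 10.46, 10.21 and 10.29 in empty vector cells. Its change was 0.60 (SE 0.0761), a 1.51-fold rise, with an adjusted p of 0.000671, and its other probe set gave 0.58 (adjusted p 0.018). SLC2A3 was at 11.30, 11.02 and 11.15 in overexpression cells, against 10.77, 10.74 and 10.77 in empty vector cells (0.40, SE 0.076, adjusted p 0.00884). Its other probe sets gave 0.37 (adjusted p 0.0371) and 0.32 (adjusted p 0.286). MXI1 was at 10.31, 10.11 and 10.13 in overexpression cells, against 9.94, 9.81 and 9.84 in empty vector cells (0.32, SE 0.0701, adjusted p 0.0175). All 3 genes kept the groups apart. The MXI1 call was lost when any of overexpression replicate 1, empty vector replicate 2 and empty vector replicate 3 was left out. KDM3A, at 0.26 (adjusted p 0.0503), NDRG1, at 0.43 (adjusted p 0.0633), and ADM, at 0.34 (adjusted p 0.166), did not pass.

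HK2 fell, with levels of 10.29, 10.22 and 10.29 in overexpression cells, against 10.57, 10.62 and 10.52 in empty vector cells (-0.30, SE 0.0523, adjusted p 0.00501). ENO2, the neuronal form of enolase, was at 6.65, 6.31 and 6.38 in overexpression cells, against 7.05, 6.98 and 7.00 in empty vector cells (-0.57, SE 0.122, adjusted p 0.0159). Both falls had no overlap between groups. The ENO2 call was lost when overexpression replicate 2 or 3, or empty vector replicate 1 or 2, was left out, and the other HK2 probe set read -0.15 (adjusted p 0.423). VEGFA, at 0.06, and PLOD2, at -0.21, were not called, and neither were HIF1A at -0.07 and EPAS1 at 0.15.

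The overexpression and knockdown comparisons share no array. BNIP3L, SLC2A3, MXI1 and HK2 were called in both, 4 of the 5 calls with overexpression and 4 of the 11 with knockdown, and all 4 changed in opposite directions. Over all genes 511 were called in both, 61.2% of the overexpression calls and 30.5% of the knockdown calls, and 504 of the 511 were opposite. The opposite direction was thus found in nearly every gene called in both, not in the hypoxia genes alone.

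**Figure D2:**
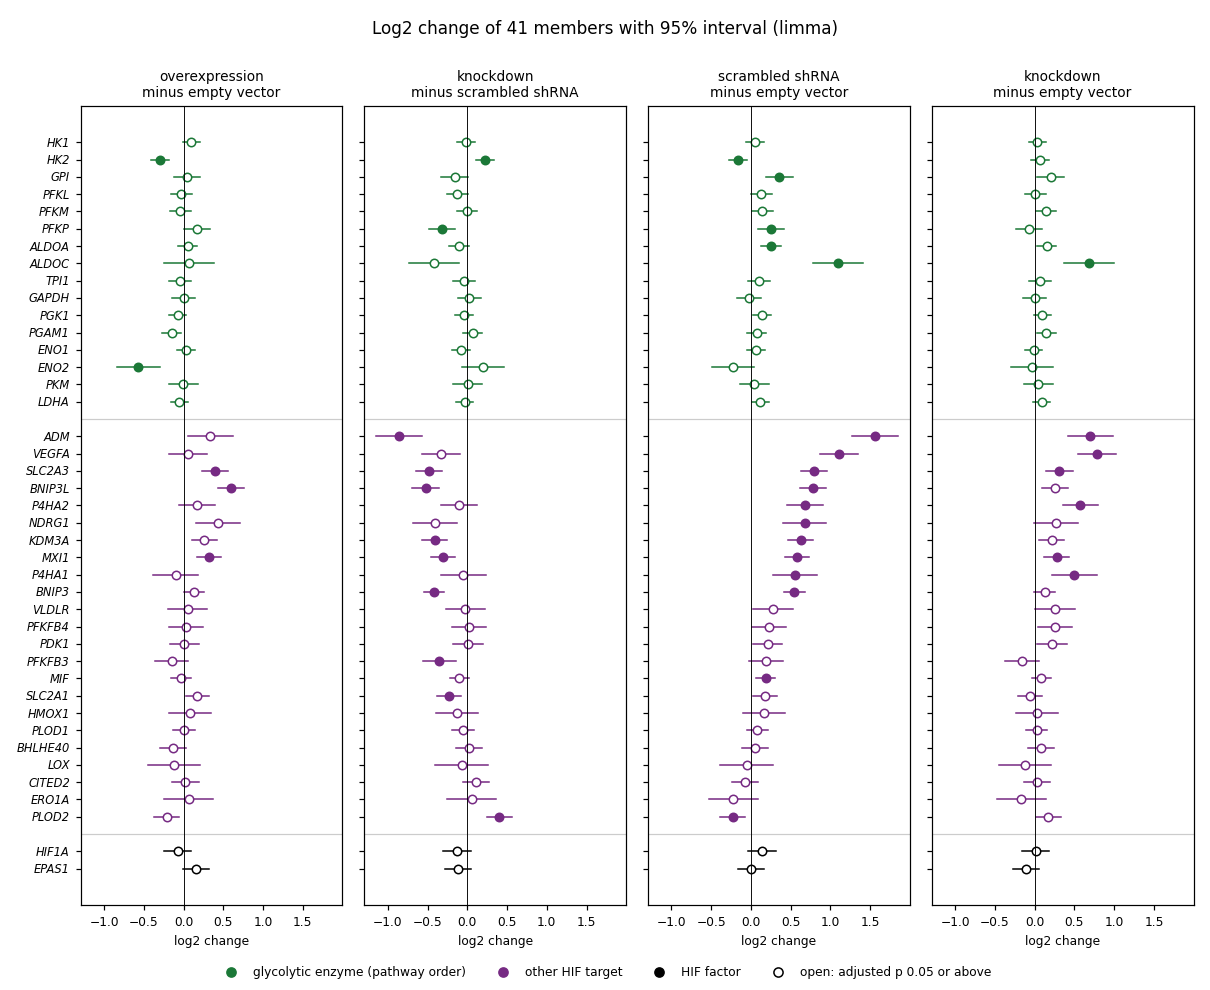
Each of the 41 genes is a row, grouped by class, with its log2 change as a point and its 95% interval as a line in the comparison named above each of the 4 panels; open points have an adjusted p of 0.05 or more. SLC2A3, BNIP3L and MXI1 lie right of 0 with overexpression and left of 0 with knockdown, and HK2 lies on the other side in each.

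More genes were called between the control groups than in either CXXC5 comparison. Between scrambled shRNA and empty vector cells 15 of the 41 genes rose and 2 fell, where 16.2% of all genes rose and 15.3% fell. Among the other targets 11 rose and 1 fell with a median of 0.23, and among the enzymes 4 rose and 1 fell with a median of 0.11, beside 0.02 over all genes. Scrambled arrays lay wholly above the empty vector arrays for 23 of the 41 genes and wholly below for 3, where 23.8% of all genes were above and 21.9% below. Without scrambled replicate 3 these counts were 28 above and 3 below, beside 28.6% and 27.2% of all genes, and the medians were 0.31 for the other targets and 0.12 for the enzymes. By class, with all arrays, 12 of the 23 other targets were wholly above and 1 below, and 10 of the 16 enzymes were above and 2 below. The construct, the way it was delivered and how long it was carried cannot be told apart in this comparison.

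ADM differed most, at 6.42, 6.98 and 6.55 in scrambled cells, against 4.99, 5.05 and 5.23 in empty vector cells, a change of 1.56 (SE 0.132), or 2.95-fold, with an adjusted p of 9.98e-06. VEGFA was at 11.01, 11.13 and 11.23 in scrambled cells, against 10.27, 9.86 and 9.93 in empty vector cells (1.11, SE 0.11, adjusted p 3.17e-05). ALDOC, the brain form of aldolase, was at 9.25, 9.56 and 9.47 in scrambled cells, against 8.68, 8.17 and 8.14 in empty vector cells (1.09, SE 0.144, adjusted p 0.000218). None of the 3 genes overlapped between the groups. SLC2A3 (0.79), BNIP3L (0.78), P4HA2 (0.68), NDRG1 (0.67), KDM3A (0.63), MXI1 (0.58), P4HA1 (0.55) and BNIP3 (0.55) followed. Of these, other probe sets gave 0.58 (adjusted p 0.000728) and 0.35 (0.0905) for SLC2A3. They gave 0.51 for BNIP3L (adjusted p 0.00835) and 0.26 for BNIP3 (0.0755). The enzymes GPI (0.36), ALDOA (0.25) and PFKP (0.25) and the cytokine MIF (0.18) rose by less. HK2 (-0.16, adjusted p 0.0333) and PLOD2 (-0.23, adjusted p 0.0309) fell, and the PLOD2 call ended without scrambled replicate 3 (adjusted p 0.095), where 16 of the 41 rose and 1 fell, beside 13% and 13.7% of all genes. It also ended without empty vector replicate 1 or 2, as did those of HK2 and MIF, and each of the calls of HK2, MIF and PFKP was lost in 4 of the 6 fits that left out an array of these groups. The other probe sets of HK2 and PLOD2 gave -0.52 (adjusted p 0.00136) and -0.51 (adjusted p 0.0181).

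ADM, SLC2A3 and MXI1 fell in knockdown cells set against scrambled shRNA and rose in the same cells set against empty vector, so their direction depended on the control. Against empty vector cells 7 of the 41 rose and 0 fell, where 3.02% of all genes rose and 1.52% fell. Knockdown arrays lay wholly above the empty vector arrays for 20 genes and below for 0, where 17.5% of all genes were above and 12.5% below. These 20 were 12 of the 23 other targets and 8 of the 16 enzymes. The 7 that rose were VEGFA (0.78), ADM (0.70), ALDOC (0.68), P4HA2 (0.58), P4HA1 (0.50), SLC2A3 (0.31) and MXI1 (0.28). ADM averaged 5.43 ± 0.16 in overexpression, 5.79 ± 0.09 in knockdown, 6.65 ± 0.30 in scrambled and 5.09 ± 0.13 in empty vector cells (SD, n = 3 each). Of the 7 calls, those of SLC2A3, ALDOC, P4HA1 and MXI1 were lost in at least 5 of the 6 fits that left out an array of these groups. The ADM call was lost in 3 of the 6, without empty vector replicate 2 or knockdown replicate 2 or 3, and the P4HA2 call in 1, without empty vector replicate 2. Without that array 1 of the 41 rose, where 0.702% of all genes did. This comparison shares its knockdown arrays with the knockdown comparison above and its empty vector arrays with the other comparisons, so they are not independent of each other.

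VEGFA, ALDOC, P4HA1 and P4HA2 were high in both lentiviral groups and were not called with overexpression or with knockdown against scrambled shRNA. ALDOC still changed by -0.41 with knockdown against scrambled shRNA (adjusted p 0.0788), with no overlap between those groups. VEGFA averaged 10.07 ± 0.12 in overexpression, 10.80 ± 0.14 in knockdown, 11.13 ± 0.11 in scrambled and 10.02 ± 0.22 in empty vector cells (SD, n = 3 each). P4HA2 read 9.18, 8.90 and 8.89 in overexpression, 9.45, 9.36 and 9.38 in knockdown, 9.44, 9.55 and 9.51 in scrambled and 9.05, 8.65 and 8.76 in empty vector cells, so that the lentiviral groups met and all 6 of their arrays exceeded the nucleofected ones. Over all 41 genes the scrambled group had the highest mean for 27, or 65.9%, against 33.9% of all genes. The empty vector group had the lowest mean for 18, or 43.9%, against 28.6% of all genes. Without scrambled replicate 3 these were 27 (31.1% of all genes) and 19 (28.4%). By class, with all arrays, the empty vector group was lowest for 14 of the 23 other targets (60.9%) and 4 of the 16 enzymes (25%). The overexpression group was lowest for 3 of the 23 other targets (13%) and 9 of the 16 enzymes (56.2%), against 22.2% of all genes.

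The enzymes and the other targets were set side by side by their medians. The median change of the enzymes minus that of the other targets was -0.07 with overexpression (spread between arrays, SD, 0.0539), 0.07 with knockdown against scrambled shRNA (0.0324), -0.12 for scrambled shRNA against empty vector (0.0315) and -0.15 for knockdown against empty vector (0.0358). Without the 40% of genes with the lowest levels the difference was 0.14 with knockdown against scrambled shRNA and -0.27 for scrambled shRNA against empty vector. That filter left out ADM, PFKFB4, HMOX1, VLDLR and LOX, all of them other targets, and none of the enzymes. The size of the difference also depended on single arrays. With overexpression it was -0.034 without empty vector replicate 3, smaller in size than the spread of 0.0539, and -0.13 without overexpression replicate 1. That spread combines the SDs of single arrays in both groups and is not a standard error of the difference. With knockdown against scrambled shRNA it was 0.048 without scrambled replicate 3 and 0.11 without scrambled replicate 1. For scrambled shRNA against empty vector it was -0.19 without scrambled replicate 3 and -0.088 without empty vector replicate 3, and for knockdown against empty vector it was -0.10 without empty vector replicate 2 or knockdown replicate 1. The median deviation of the other targets from their 12-array means was 0.18 to 0.23 in the scrambled arrays and -0.17 to -0.08 in the empty vector arrays. For the enzymes the same medians were 0.07 to 0.08 in the scrambled and -0.06 to -0.01 in the empty vector arrays. Both classes thus ranked the control groups in the same order, with a narrower range in the enzymes. In the overexpression arrays the medians of the other targets were -0.07 to 0.01, above those of every empty vector array. Those of the enzymes were -0.12 to -0.04 there and overlapped the empty vector arrays, with the lowest in overexpression replicate 3.

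**Figure D3:**
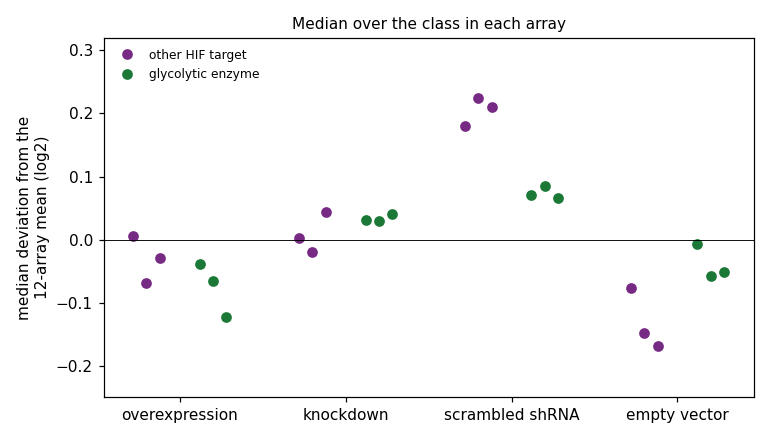
Each point is 1 array, and its height is the median, over the 16 glycolytic enzymes or the 23 other HIF targets, of the log2 deviation from each gene's mean over the 12 arrays. The other targets reach 0.18 to 0.23 in scrambled shRNA cells and -0.17 to -0.08 in empty vector cells, and the enzymes span a narrower range. In overexpression cells the other targets lie at -0.07 to 0.01 and the enzymes at -0.12 to -0.04.

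The most abundant readings of the chain barely moved. LDHA, which turns pyruvate into lactate, was at 13.60, 13.54 and 13.57 in overexpression, 13.70, 13.70 and 13.73 in knockdown, 13.75, 13.75 and 13.74 in scrambled and 13.63, 13.60 and 13.64 in empty vector cells. GAPDH, which oxidises glyceraldehyde phosphate, stayed between 13.77 and 13.85 on 11 arrays and read 13.60 in scrambled replicate 3, the array with the high 3' minus 5' difference. ALDOA, TPI1, PGK1 and ENO1, the aldolase, isomerase, kinase and enolase of the main chain, also had mean levels of at least 12, and of these 6 enzymes ALDOA alone was called, between the control groups, joined there by TPI1 when scrambled replicate 3 was left out. The split at 12 was chosen after the values were seen. Genes this bright moved less across the array as well: 5.68% of 387 such genes were called with knockdown against scrambled shRNA and 14.3% of the others, and between the control groups 20.2% and 31.9%. Of the 10 enzymes below that level, 2 were called with knockdown against scrambled shRNA, 2 with overexpression and 4 between the control groups. These are 20%, 20% and 40%, beside 14.3%, 7.12% and 31.9% of all genes below that level. HK1, PFKL, PFKM, PGAM1 and PKM, which complete the chain, were called in none of the 4 comparisons, with changes from -0.15 to 0.15.

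**Figure D4:**
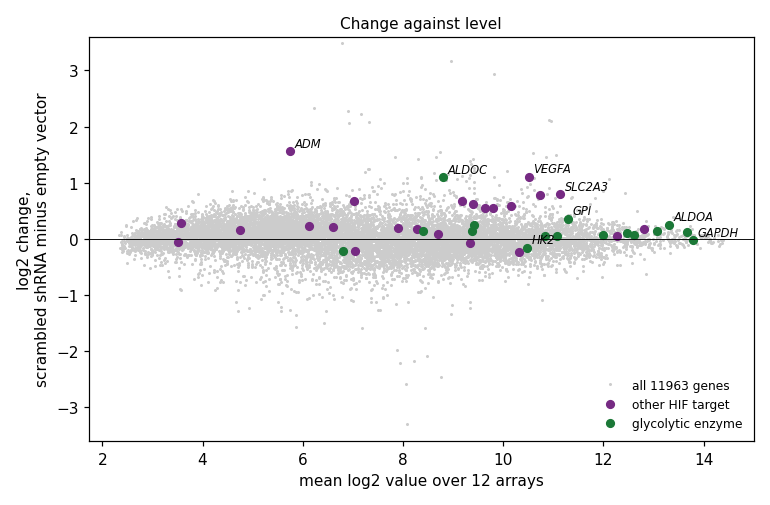
Coloured points are the 16 enzymes and 23 other targets and grey points all 11963 genes, placed by mean log2 level over 12 arrays and by log2 change in scrambled shRNA minus empty vector. The enzymes with a level of at least 12 changed by at most 0.251, and ADM at 1.56 and VEGFA at 1.11 are the highest coloured points.

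The remaining targets passed in none of the comparisons. VLDLR, a lipoprotein receptor, LOX, which crosslinks collagen, and HMOX1, the haem oxygenase, had mean levels of 3.58, 3.51 and 4.74. ERO1A, a disulfide oxidase of the endoplasmic reticulum, and PLOD1, a relative of PLOD2, had means of 7.03 and 8.69.

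Other genes of the pathways were taken from lists of 67 symbols, of which 59 were measured. With overexpression 1 of the 59 rose and 1 fell, with knockdown against scrambled shRNA 3 rose and 4 fell, between the control groups 12 rose and 7 fell, and with knockdown against empty vector 3 rose and 0 fell. As shares of the 59, 1.69% rose and 1.69% fell with overexpression, beside 3.61% and 3.37% of all genes. With knockdown against scrambled shRNA 5.08% rose and 6.78% fell, beside 8.79% and 5.22%. Between the control groups 20.3% rose and 11.9% fell, beside 16.2% and 15.3%, and with knockdown against empty vector 5.08% rose, beside 3.02%. Among 9 regulators of HIF, EGLN3, a prolyl hydroxylase that is itself a HIF target, fell by 0.37 with knockdown (adjusted p 0.042) and rose by 0.41 in scrambled against empty vector cells. CUL2, another of the 9, fell in that control comparison, with a change of -0.45 (adjusted p 0.00877). Among 21 further HIF targets, 4 fell with knockdown and 1 rose: CA12, a carbonic anhydrase (-0.47), EGLN3, DDIT4, an inhibitor of mTOR (-0.32), GBE1, the glycogen branching enzyme (-0.30), and, rising, RBPJ, the Notch effector (0.24). Between the control groups 8 of the 21 rose and 2 fell, DDIT4 by the most, at 1.06, and with overexpression 0 of the 21 was called.

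Among 12 isoenzymes and lactate genes, TIGAR, a phosphatase that lowers glycolytic flux, rose with knockdown by 0.75 (adjusted p 0.001), and ENO3, the muscle enolase, rose by 0.42 (adjusted p 0.008). In scrambled against empty vector cells TIGAR fell by 0.99 and ENO3 by 0.50, and ENO3 fell with overexpression by 0.49 (adjusted p 0.007). Of 12 genes of pyruvate entry into mitochondria or its use there, MPC2, a subunit of the pyruvate carrier, rose with overexpression by 0.24 (adjusted p 0.029). None of the 12 was called with knockdown against scrambled shRNA. Between the control groups 2 of the 12 rose (MPC2 and PC) and 2 fell (DLAT and PDK3). Of 6 genes of the pentose phosphate pathway, 0 were called with overexpression or with knockdown against scrambled shRNA, and PGD (0.29) and TKT (0.27) rose between the control groups.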

How the data were processed

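RNA from 12 samples was measured on Affymetrix 3' arrays, 1 per sample. The deposited values are log2 expression values of 22277 probe sets, and the log2 scale was inferred from their range. The submitters' processing notes name Affymetrix Expression Console; its summarisation method and version are not given in the sources. Scan batches were not analysed here. Arrays have no depth per sample, and their number limits the precision. Separate cultures are not stated for the replicates, so the p-values cover only the spread between these arrays, which may be technical.

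After leaving out 62 control probe sets, 19064 probe sets had 1 gene symbol, 1043 had several and 2108 had none; the last 2 kinds were not named. Through gene identifiers 19052 matched RefSeq (GRCh38.p14). The probe set with the highest mean stood for each of 11963 genes. limma 3.58.1 in R 4.3.3 fitted 1 coefficient per group over 12 arrays (8 residual degrees of freedom), with eBayes, two-sided tests and Benjamini-Hochberg adjustment over all genes. The fit was tested on simulated data. The genes and lists were chosen with earlier results of these data known. Genes called in a CXXC5 comparison are named with every array's value, and the others by count, with those of smallest p. Alternatives covered scaling, filters, probe sets, priors, weights, a replicate block, thresholds and leaving out arrays. Figures used matplotlib 3.10.9.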

Additional observations from a re-analysis of the deposited data

Results flagged for a closer look

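The change with knockdown against scrambled shRNA minus the change with overexpression against empty vector was tested in the same limma fit, with 12.3% of all genes above 0 and 8.15% below 0 past the adjusted threshold. Of the 41 genes, 9 had a difference below 0 and 3 above 0, and each is given because the effects in the 2 arms differed. Among signals and mitophagy receptors the difference was -1.20 for ADM (adjusted p 0.000828), -0.55 for BNIP3 (0.000625) and -1.12 for BNIP3L (2.73e-05). NDRG1 had a difference of -0.84 (adjusted p 0.00566) although it was called in neither arm alone. The glucose transporters SLC2A3 and SLC2A1 had differences of -0.88 (adjusted p 0.000153) and -0.41 (0.0106). KDM3A had -0.67 (adjusted p 0.00069), MXI1 -0.63 (0.000899) and PFKP -0.48 (0.00662). The genes that ran the other way were ENO2, at 0.76 (adjusted p 0.00814), PLOD2, at 0.61 (0.00132), and HK2, at 0.52 (0.000421). By class, 8 of the 23 other targets and 1 of the 16 enzymes were below 0, and 1 of the 23 and 2 of the 16 were above 0. Without scrambled shRNA replicate 3 there were again 9 below 0 and 3 above 0, the same 12 genes, beside 7.94% and 12.3% of all genes.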

How the results depend on the processing

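None of the gene calls reversed direction under any alternative that held the gene. The fits without the 40% lowest genes left out ADM, so its calls were not tested there. Small changes of some genes that were not called did reverse. Without scrambled replicate 3, GAPDH went from 0.03 to -0.05 and ERO1A from 0.06 to -0.08 with knockdown against scrambled shRNA. With overexpression, 5 genes rose when the 40% lowest genes were left out, with a trended robust prior, with array weights and at an adjusted p under 0.1; 4 fell with the trended robust prior and 1 fell at a threshold of 0.01. With knockdown against scrambled shRNA, 1 rose and 5 fell at 0.01, 1 rose in a fit of only these 6 arrays, and the class difference was 0.14 without the lowest genes. Between the control groups 1 fell with median centring or only 6 arrays and 0 at 0.01. The class difference there was -0.15 with quantile normalization, -0.27 without the lowest genes, -0.16 with the mean of probe sets, -0.17 with array weights and -0.27 with the glucose transporters, PFKFB3, PFKFB4 and PDK1 counted with the enzymes. With knockdown against empty vector 12 rose with array weights and 1 at 0.01. For these alternatives, and for the replicate block below, the shares of all genes called are not given. A larger or smaller count there may therefore not be particular to the genes followed here. Leaving out each array in turn gave 2 to 5 rises and 1 to 2 falls with overexpression (class difference -0.13 to -0.03), 2 rises and 6 to 9 falls with knockdown against scrambled shRNA (0.048 to 0.11), 13 to 16 rises and 0 to 2 falls between the control groups (-0.19 to -0.088), 1 to 7 rises and 0 falls with knockdown against empty vector (-0.16 to -0.10), and 3 rises and 9 to 12 falls for the difference of effects. Of 40 gene calls, 9 were lost in fits of only the 6 arrays compared (PFKFB3, SLC2A1 and HK2 with knockdown among them), 3 with the mean of probe sets, 1 with median centring and 1 with the block, and 0 with quantile normalization, array weights or the trended prior. Other probe sets of called genes passed 15 times and missed 11 times. The cause of these changes was not tested, beyond the fewer genes or arrays used. Correlations of same-numbered replicates between groups were computed after subtracting each gene's group mean. They were -0.0144 to 0.334 for overexpression and empty vector, where 2 of 3 correlated best with their own number. For knockdown and scrambled shRNA they were -0.034 to 0.271, where 1 of 3 did. They did not exceed 0.1 in every pair, so the numbers were not taken as pairs; with a replicate block the counts were 3 rises and 2 falls, 2 and 10, 16 and 2, and 6 and 0 in the order above, and 3 and 9 for the difference. The counts of genes without overlap and of group extremes without scrambled replicate 3 were added after the data were seen.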
